A study of Homo sapiens with 6 samples.

Results

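The expression of 6 collagen genes and of LOX, the gene of lysyl oxidase, was compared in LX-2, an immortalised line of human hepatic stellate cells, with and without albiflorin (ALB). They are COL1A2, COL3A1 and COL11A2 (fibrillar collagens), COL6A3, COL4A6 and COL25A1 (other collagens) and LOX, chosen by symbol, and make up 7 of the 937 rows of the authors' final list of differing genes. All cells first received TGF-β1 (20 ng/mL, 24 h). They were then cultured for another 24 h with ALB (ALB group) or with plain medium (TGF-β1 group, which the sample labels name CON), and poly(A) RNA was sequenced from 3 libraries per group. No cells free of TGF-β1 were analysed here, and the ALB dose of the sequenced cells is not given in the sources used here. LX-2 is a single line, and the study's general statement that its data come from independent experiments does not say whether the 3 sequenced libraries of a group came from separate cultures, so each p-value reflects only how far these libraries scatter, and that scatter may be technical.

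Collagens are trimers whose chains wind into a triple helix, which requires a chain built of Gly-X-Y triplets, each opening with glycine. Fibrillar collagens carry a long unbroken helix and pack into fibres, whereas the chains of basement membrane, beaded-filament and transmembrane collagens have shorter or interrupted helices. LOX is a secreted copper enzyme that oxidises lysines of fibrillar collagens, from which the crosslinks between molecules form. Types I and III are the main collagens of the scar in liver fibrosis, and activated stellate cells are their main source.

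The coding sequences of the members show this difference in structure, which is independent of the expression data. In the longest coding transcript of each gene (GENCODE 29, GRCh38), the longest unbroken run of Gly-X-Y codons was 339 triplets in COL1A2, 343 in COL3A1 and 338 in COL11A2. It was 45 triplets in COL6A3, 38 in COL4A6 and 50 in COL25A1, and LOX had no run of 3 or more. COL4A6 had 26 separate runs, with 427 triplets among its 1707 codons, whereas COL6A3 had 3 runs with 110 triplets among 3177 codons. The stretches below are printed 5′ to 3′ to show the repeat that defines a collagen and how it breaks. Capitals mark glycine codons. The first 3 begin the long helix of the fibrillar chains (from codon 91 of COL1A2, 168 of COL3A1 and 487 of COL11A2). The other 3 cross the end of the longest run (from codon 2294 of COL6A3, 151 of COL4A6 and 670 of COL25A1).
COL1A2: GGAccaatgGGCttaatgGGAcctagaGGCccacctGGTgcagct
COL3A1: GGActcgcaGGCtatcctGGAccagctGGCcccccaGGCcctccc
COL11A2: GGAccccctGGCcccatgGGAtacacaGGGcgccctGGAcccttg
COL6A3: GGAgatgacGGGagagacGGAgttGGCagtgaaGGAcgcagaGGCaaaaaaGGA
COL4A6: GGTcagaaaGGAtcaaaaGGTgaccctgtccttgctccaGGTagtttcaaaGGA
COL25A1: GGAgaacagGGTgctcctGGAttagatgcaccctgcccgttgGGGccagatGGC
In the fibrillar stretches exactly 2 codons stood between neighbouring glycine codons. In COL6A3 there was a single codon between glycines at the break, and in COL4A6 and COL25A1 there were more than 2. This contrast follows from where the stretches were cut, since every run is regular inside and stops at its end. The classes differ in the length of the longest run, given above.

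Read counts and FPKM (fragment counts scaled to transcript length and library depth) were deposited for selected genes only, so column sums are not depths. Depths estimated from count and FPKM ranged from 33800000 to 41600000 fragments per library. The edgeR quasi-likelihood test was fitted at these depths to the counts of all 937 rows, and genes with a Benjamini-Hochberg adjusted p below 0.05 passed. Positive log2 fold changes mean higher levels with ALB. The authors had selected the rows on the same 6 libraries, so passing this test is not independent evidence. TMM scaling of the same rows, which assumes that most of them do not change, moved the median log2 fold change over all rows from -0.97 to -0.37, and the share of genes called lower from 56.9% to 35.3%. Of 15 hepatocyte markers, the cell type that the labels name beside the stellate line, none was among the rows analysed here. Of 20 stellate markers 3 were, COL1A2, COL3A1 and NGFR.

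After ALB, 5 of the 7 members were lower and 2 were higher. COL3A1 and COL1A2 fell most, COL6A3, LOX and COL25A1 fell less, and COL11A2 and COL4A6 rose. All passed edgeR's test, where 56.9% of the table's genes passed as lower and 42.5% as higher, and the split of the members is therefore not read as particular to them. The median log2 fold change of the members was -1.25, against -0.97 for the table. Neither structural class moved one way, since 2 of 3 fibrillar and 2 of 3 other collagens fell and the remaining gene of each rose. In bulk RNA, fewer cells that express a gene and less RNA per cell cannot be told apart. In counts scaled to depth the groups did not overlap for 6 members (all but COL4A6), as for 96.8% of the table's genes. With TMM factors 4 members passed as lower (35.3% of the table) and 2 as higher (42.7%), with a median of -0.65 for the members and -0.37 for the table.

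**Figure D1:**
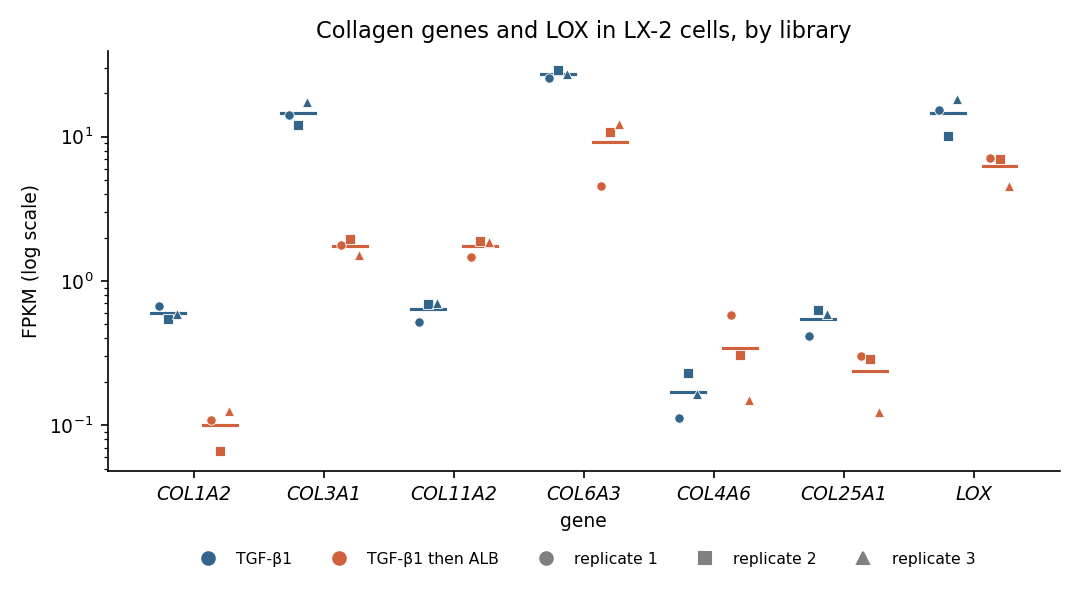
FPKM (log axis) of the 7 genes in each library, with TGF-β1 libraries in blue, ALB libraries in orange, symbols for replicates and bars for group means (n = 3). The groups are separate for every gene except COL4A6, and COL3A1 shows the widest gap, from a mean of 14.5 to 1.76 FPKM.

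Levels are compared between genes in FPKM, which accounts for length. In the TGF-β1 group COL6A3 stood first at 27.3 ± 1.78 FPKM (mean ± SD, n = 3), followed by LOX at 14.6 ± 4.19 and COL3A1 at 14.5 ± 2.66, whose libraries overlapped. COL11A2, COL1A2 and COL25A1 came next with means of 0.638, 0.601 and 0.545 FPKM and overlapping libraries, and COL4A6 was lowest at 0.169. In the ALB group COL6A3 (9.19 ± 4.06) and LOX (6.22 ± 1.45) still came first but overlapped. COL3A1 and COL11A2 now overlapped at 1.76 ± 0.232 and 1.74 ± 0.242 FPKM. COL1A2, the fifth gene of the TGF-β1 order, was last at 0.0658 to 0.125 FPKM, although its libraries overlapped those of COL25A1 (0.123 to 0.303).

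COL3A1 encodes the single chain of type III collagen, a homotrimer found with type I in fibres. The gene spans chr2:188974320-189012746 on the plus strand (GRCh38, GENCODE 29), and its annotated exons overlap those of the microRNA gene MIR3606 on the same strand. Without ALB it had 2933, 2349 and 3199 counts, and with ALB 351, 385 and 343. Its FPKM were 14.1, 12.1 and 17.3 without ALB and 1.79, 1.97 and 1.51 with it. Every ALB library was far below every TGF-β1 library. It fell by 3.04 on the log2 scale (standard error 0.21, adjusted p = 1.45e-05, edgeR), which put it 7th of the 937 genes by p and 35th among the lower genes by fold change. The ALB libraries were also close to each other, with a coefficient of variation of 13.2%.

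COL1A2 encodes the α2 chain that joins 2 α1(I) chains in type I collagen, the most abundant collagen of scar tissue. The gene spans chr7:94394561-94431232 on the plus strand. It had 129, 98 and 101 counts without ALB and 20, 12 and 27 with it, and its FPKM were 0.667, 0.545 and 0.590 against 0.109, 0.0658 and 0.125. The groups did not overlap, but the gene was low in both, ranking 693rd of 937 by mean FPKM in the TGF-β1 group. On the log2 scale COL1A2 fell by 2.55 (standard error 0.32, adjusted p = 0.00013, edgeR). COL1A1, the partner chain, was not analysed here.

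COL11A2 encodes the α2 chain of type XI collagen, a minor fibrillar collagen best known from cartilage, where it lies within type II fibrils. The gene spans chr6:33162681-33192499 on the minus strand. Its counts were 124, 152 and 152 without ALB and 325, 434 and 495 with it. FPKM rose from 0.522, 0.688 and 0.703 to 1.46, 1.89 and 1.87. All ALB libraries were above all TGF-β1 libraries. The rise was 1.46 on the log2 scale (standard error 0.23, adjusted p = 0.00036, edgeR), and leaving out any 1 library gave 1.33 to 1.58. COL11A2 thus went opposite to the other fibrillar chains. It went from a level like that of COL1A2 to a level like that of COL3A1, which had itself fallen from 14.5 to 1.76 FPKM.

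COL6A3 encodes the large α3 chain of type VI collagen, which forms beaded filaments around cells and whose cleaved end is the peptide endotrophin. The locus is chr2:237324003-237414375 on the minus strand. Its counts were 9289, 9687 and 8741 without ALB and 1479, 3637 and 4967 with it, the highest counts of the members in every library. The corresponding FPKM were 25.6, 29.1 and 27.2, then 4.57, 10.8 and 12.2. The TGF-β1 libraries were close to each other, while ALB replicate 1 was well below the other ALB libraries, so the coefficient of variation of depth-scaled counts was 5.52% without ALB and 46.9% with it. Its log2 fold change was -1.56 (standard error 0.34, adjusted p = 0.00183, edgeR) and -1.22 without ALB replicate 1. It was -0.94 with TMM factors (adjusted p = 0.031, edgeR) and -0.84 when DESeq2 set the size factors (adjusted p = 0.0247).

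COL25A1 encodes a transmembrane collagen known from neurons and from amyloid plaques, where its shed ectodomain is found. The locus is chr4:108808725-109302752 on the minus strand. Its counts were 119, 172 and 139 without ALB and 86, 83 and 41 with it, and FPKM was 0.415, 0.629 and 0.592 against 0.303, 0.290 and 0.123. ALB replicate 3 was the lowest library, and the groups did not overlap. COL25A1 fell by 1.08 on the log2 scale (standard error 0.37, adjusted p = 0.0167, edgeR), the weakest of the lower members. The call was lost without TGF-β1 replicate 2 (log2 fold change -0.93, adjusted p = 0.0577, edgeR) and with TMM factors (-0.50, adjusted p = 0.183, edgeR).

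COL4A6 encodes the α6 chain of type IV collagen, the network collagen of basement membranes. The locus is chrX:108155607-108439497 on the minus strand. Its counts were 19, 40 and 22 without ALB and 105, 43 and 41 with it. Scaled to the estimated depth these were 0.498, 1.12 and 0.651 CPM (counts relative to a common library depth) without ALB and 2.93, 1.20 and 0.986 with it. ALB replicate 1 alone stood high, and ALB replicate 3 lay below TGF-β1 replicate 2. Across the libraries the log2 fold change was 1.16 (standard error 0.49, adjusted p = 0.0406, edgeR), 927th of 937 genes by p. It was 1.76 with TMM factors and 1.86 with DESeq2's own size factors. Without ALB replicate 1 it was 0.53 (adjusted p = 0.246, edgeR), and the call was also lost without TGF-β1 replicate 1 (0.93, adjusted p = 0.126) and without TGF-β1 replicate 3 (1.07, adjusted p = 0.104).

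In FPKM the groups of COL4A6 overlapped too, and count and FPKM did not move together. FPKM was 0.112, 0.232 and 0.164 without ALB and 0.580, 0.305 and 0.149 with it. ALB replicate 3 was below TGF-β1 replicate 2 both in CPM (0.986 against 1.12) and in FPKM. Against TGF-β1 replicate 3 the measures disagreed, as ALB replicate 3 was higher in CPM (0.986 against 0.651) and lower in FPKM. A two-sided exact permutation test of FPKM gave p = 0.3, whereas each of the other members reached p = 0.1, the smallest that 3 libraries against 3 allow. That value only restates that their groups did not overlap, which held for 96.8% of the table's genes in depth-scaled counts. Limma on log2(FPKM + 1) gave a difference of 0.19 (adjusted p = 0.114). The length behind an FPKM value can be worked out from count, FPKM and depth. For COL4A6 it was 4456, 4836 and 3967 bases without ALB and 5047, 3945 and 6600 with it, a spread of 1.67-fold. The spread was 1.00-fold for COL3A1, 1.03-fold for COL1A2, COL11A2 and LOX, 1.09-fold for COL6A3 and 1.15-fold for COL25A1. Over the 880 genes that reached 10 counts in each library its median was 1.07-fold, and 61 of them exceeded COL4A6. The annotation holds 10 transcripts of COL4A6, but FPKM of single transcripts was not analysed here, and which length the authors used for each library is not given in the sources used here.

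**Figure D2:**
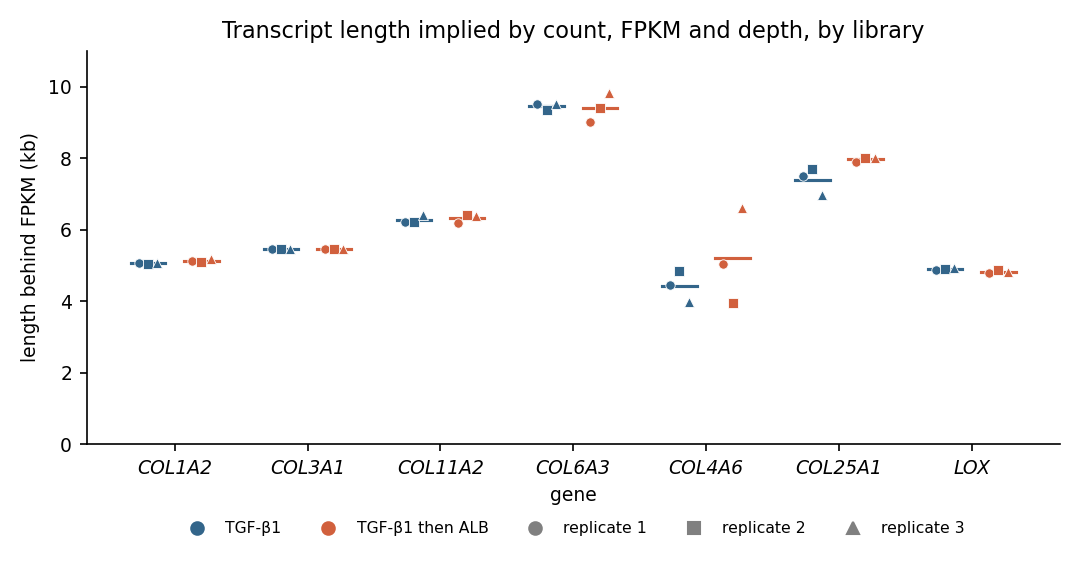
Transcript length (kb) implied by count, FPKM and estimated depth in each library, with symbols and colours for groups and replicates and bars for group means. COL3A1, COL1A2 and LOX vary by at most 1.03-fold, whereas COL4A6 ranges from 3945 to 6600 bases, highest in ALB replicate 3.

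LOX spans chr5:122063195-122078360 on the minus strand. Its annotated exons overlap those of SRFBP1 on the opposite strand, and whether the counting used strand is not given in the sources used here, so reads of the pair may not be told apart. Its counts were 2842, 1761 and 3055 without ALB and 1221, 1220 and 913 with it. FPKM was 15.3, 10.1 and 18.4 without ALB and 7.10, 7.01 and 4.55 with it. TGF-β1 replicate 2 was the lowest of its group and still above every ALB library. For LOX the log2 fold change was -1.25 (standard error 0.26, adjusted p = 0.00169, edgeR) and between -1.46 and -1.05 with any 1 library left out. It was -0.65 with TMM factors (adjusted p = 0.0257, edgeR), and with DESeq2's own size factors it did not pass (-0.55, adjusted p = 0.054, DESeq2).

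**Figure D3:**
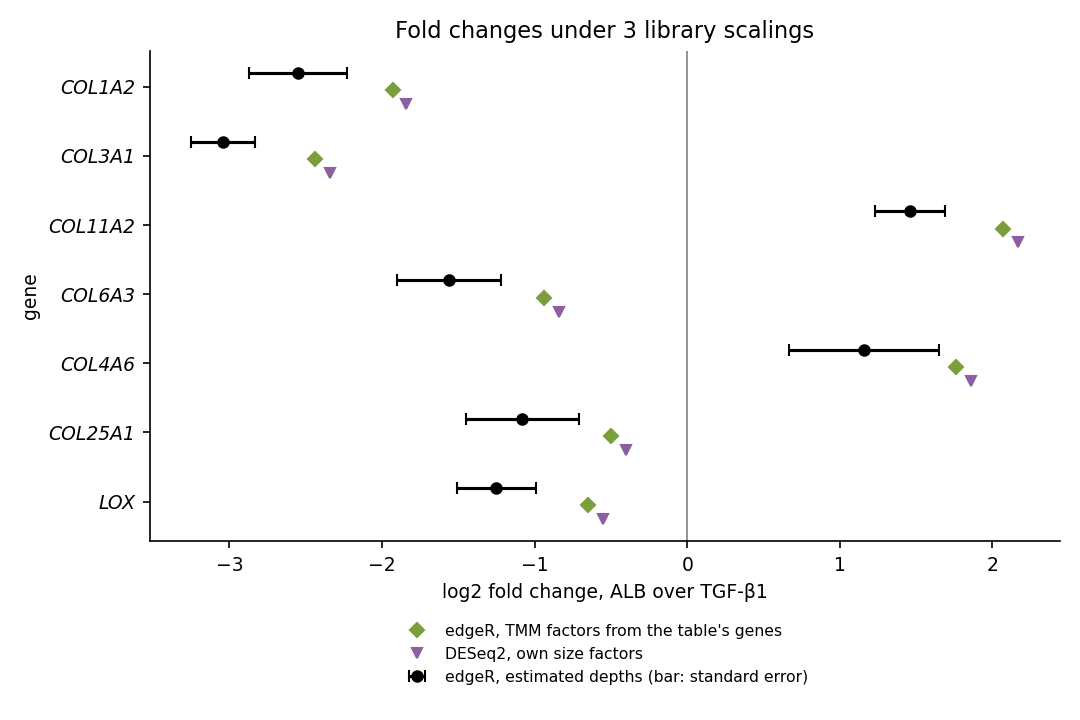
Log2 fold change (ALB over TGF-β1) of each gene by edgeR at the estimated depths (black, bar: standard error), by edgeR with TMM factors (green) and by DESeq2 with its own size factors (purple). Both other scalings move every gene upwards, COL3A1 from -3.04 to -2.44 with TMM, and none of the 7 crosses 0.

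Ratios of members within a library do not depend on the depth estimate. A total of 7 pairs were compared, each other member over COL1A2, and LOX over COL3A1. The count ratio of LOX to COL3A1 was 0.969, 0.750 and 0.955 without ALB and 3.48, 3.17 and 2.66 with it. This ratio differed 3.48-fold between the groups (difference of mean log2 ratios 1.80, standard error 0.16). Counts are not scaled to length, so they do not show which of the 2 genes was higher. In FPKM, LOX was above COL3A1 in TGF-β1 replicates 1 (15.3 against 14.1) and 3 (18.4 against 17.3). In TGF-β1 replicate 2 it was below (10.1 against 12.1). LOX to COL1A2 was 22.0, 18.0 and 30.2 without ALB and 61.0, 102 and 33.8 with it, a 2.54-fold difference (log2 1.34, standard error 0.50). COL11A2 to COL1A2 was 0.961, 1.55 and 1.50 without ALB and 16.2, 36.2 and 18.3 with it (16.4-fold). COL4A6 to COL1A2 had a fold difference of 12.5. In these 4 pairs the groups did not overlap, and the two-sided exact permutation test gave its smallest possible p of 0.1 (adjusted p = 0.175 over the 7 pairs). The genes of every pair had been selected as differing on these same libraries. COL11A2 and COL4A6 rose while COL1A2 fell, so their ratios were bound to shift. How often other pairs of rows separate the groups was not computed, so the separation is not read as particular to the members.

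The remaining 3 ratios overlapped between the groups. For the major fibrillar chains, COL3A1 to COL1A2 was 22.7, 24.0 and 31.7 without ALB and 17.6, 32.1 and 12.7 with it. The difference of mean log2 ratios was -0.46 (standard error 0.41, exact permutation p = 0.3). COL6A3 to COL1A2 (log2 difference 0.88, standard error 0.60, exact permutation p = 0.3) and COL25A1 to COL1A2 (1.42, standard error 0.69, exact permutation p = 0.2) varied widely among the ALB libraries. Single libraries moved 2 of these ratios. The difference for COL3A1 to COL1A2 was -0.16 without ALB replicate 3 and -0.81 without ALB replicate 2, and that for COL6A3 to COL1A2 was 0.43 without ALB replicate 2 and 1.44 without ALB replicate 1. For LOX to COL3A1 it stayed between 1.68 and 1.91 with any 1 library left out. All ratios over COL1A2 rest on its 12 to 27 counts in the ALB libraries.

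The make-up of the 6 collagen transcripts can be given as shares. Their summed FPKM was 43.8 ± 2.64 without ALB and 13.4 ± 3.96 with it, lowest in ALB replicate 1 (8.82). COL3A1 held 33.0% ± 4.74 of the sum without ALB and 14.2% ± 5.55 with it (mean ± SD, n = 3). COL11A2 went from 1.45% ± 0.17 to 13.5% ± 2.66. COL6A3 held the largest share in every library, 62.5% ± 4.49 and 66.2% ± 12.8, and its groups overlapped. COL1A2 held at most 1.61% in any library. ALB replicate 1 had the lowest share of COL6A3 (51.8%) and the highest shares of COL11A2 (16.6%) and COL4A6 (6.58%). The level of COL11A2 itself was lowest of the ALB group in that library (1.46 FPKM against 1.89 and 1.87), so its high share there reflects the low sum.

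**Figure D4:**
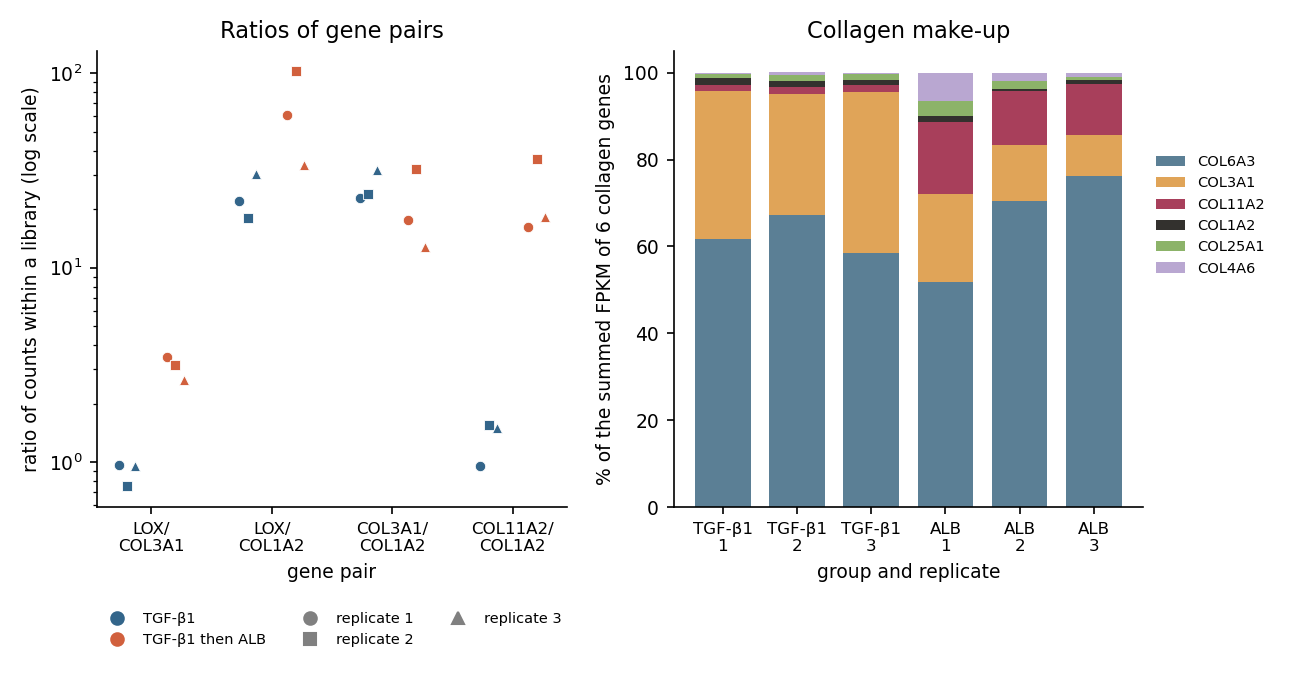
Left, count ratios of 4 gene pairs within each library (log axis), blue for TGF-β1 and orange for ALB, symbols for replicates. Right, share of each collagen gene in the summed FPKM of the 6 genes (percent) per library. LOX over COL3A1 separates the groups (0.750 to 0.969 against 2.66 to 3.48) while COL3A1 over COL1A2 overlaps, and the share of COL11A2 is 11.7% to 16.6% in the ALB libraries against 1.26% to 1.59%.

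Other genes of collagen production were taken from lists, most of whose genes were not analysed here. Over all rows 56.9% passed as lower and 42.5% as higher. The directions of the few listed genes are therefore not read as particular to their lists. Of 44 collagen chains 7 were in the table, the 6 members and COL17A1, a transmembrane collagen of epithelial hemidesmosomes, whose FPKM was 0.449 ± 0.0817 without ALB and 0.128 ± 0.0652 with it (log2 fold change -1.87, standard error 0.29). Of 5 lysyl oxidases only LOX was in the table. Of 25 genes that modify or fold collagen chains 2 were, and both fell. P4HA3, a catalytic subunit of prolyl 4-hydroxylase, which stabilises the helix, went from 2.72, 1.20 and 2.01 FPKM to 0.668, 0.306 and 0.540 (log2 fold change -1.82, standard error 0.34). PLOD2, the lysyl hydroxylase of collagen telopeptides, fell from 135 ± 5.62 to 68.3 ± 19.9 FPKM (-0.97, standard error 0.21). With TMM factors it kept its direction but did not pass (-0.37, adjusted p = 0.109, edgeR). TLL1, a protease of the BMP1 family that trims procollagen, was the 1 gene of 10 in its list and fell from 2.92 ± 0.556 to 0.464 ± 0.0751 FPKM (-2.90, standard error 0.26).

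The table held 5 of 24 genes of fibril assembly, of which 4 passed as lower (3 with TMM factors) and 1 as higher (median log2 fold change -1.65). Over all rows 56.9% passed as lower (35.3% with TMM factors) and 42.5% as higher (42.7%), with a median of -0.97. THBS1, thrombospondin 1, fell from 158 ± 24.8 to 25.3 ± 3.51 FPKM. FN1, fibronectin, on which collagen fibres assemble, fell by 1.70 on the log2 scale (standard error 0.30). CCN2, a matricellular protein, fell by 1.65 (standard error 0.17). TNXB, a tenascin that binds collagen fibrils, has a near-identical pseudogene copy, so its reads are uncertain. It rose from 1.87 ± 0.323 to 4.33 ± 0.570 CPM of estimated depth, and its FPKM in ALB replicate 1 (0.918) stood apart from the other ALB libraries (0.310 and 0.321), unlike its counts. FN1 was lowest in that library (156 FPKM against 367 and 375), as COL6A3 was. Of 21 genes of collagen breakdown and its inhibitors 3 were in the table. ADAMTS1 (-3.44, standard error 0.19) and FAP (-1.53, standard error 0.33), both proteases, fell on the log2 scale. MMP15, a membrane metalloprotease, rose from 2.26 ± 0.118 to 7.34 ± 1.62 FPKM. None of 12 collagen receptors was in the table.

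A few markers of several cell types were in the table, and they went both ways. As the table holds called genes only, 56.9% of its rows passed as lower and 42.5% as higher. With TMM factors these shares were 35.3% and 42.7%. The stellate markers include the members COL1A2 and COL3A1 themselves. The 3 stellate markers summed to 14.6 to 18.9 FPKM without ALB and 13.6 to 37.8 with it, as NGFR rose (log2 fold change 3.99) while COL1A2 and COL3A1 fell. Of 10 epithelial markers 4 were in the table (KRT7, KRT8, KRT18 and SOX9), and their summed level was 290 to 296 FPKM without ALB and 122 to 160 with it. All 4 passed edgeR's test as lower, and 2 of them (KRT18 and SOX9) with TMM factors. The 2 of 10 endothelial markers (PECAM1 and TEK) summed to 1.64 to 2.12 and 0.821 to 1.03 FPKM, and passed as lower, but 0 of them with TMM factors (adjusted p = 0.0691 and 0.158, edgeR). The 2 of 10 neural markers (TUBB3 and MAP2) summed to 33.9 to 40.4 and 81.9 to 91.0 FPKM, with MAP2 at 0 in TGF-β1 replicate 3, and the 1 of 10 leukocyte markers (ITGAM) was at 0.142 to 0.199 and 0.262 to 0.610 FPKM. The neural and leukocyte markers passed as higher under both scalings. The part of these markers in the results of the members was not tested.

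The genes whose profiles were nearest to those of COL1A2, COL3A1 and LOX were sought among 549 genes with a symbol and a mean of at least 1 FPKM. The measure was the root mean square difference of log2 counts at equal depth over the 6 libraries, each gene centred on its TGF-β1 mean. Nearest to COL3A1 were CXCL12, a chemokine (difference 0.21), LRRC17 (0.25) and MYO7B, an unconventional myosin (0.27). The log2 fold change of CXCL12 was -2.88 (standard error 0.23). Nearest to COL1A2 were ACTG2, a smooth muscle actin (0.19), PSG4 (0.26), one of a family of near-identical genes whose reads are uncertain, and NEXN, an actin-binding protein (0.27). Nearest to LOX were NRXN3, a neurexin (0.15), PHLDB2 (0.16) and NEDD4, a ubiquitin ligase (0.18). As the 6 libraries form 2 groups, the measure weighs mainly the size of the fold change.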

How the data were processed

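Poly(A) RNA of 6 LX-2 libraries was read on a NovaSeq X Plus. The authors deposited counts per gene and FPKM for the genes they called with DESeq2 (P < 0.01, more than 2-fold). CASAVA 1.4 and mouse builds appear in the submitters' processing notes, whereas the row names are human. The sources used here name no aligner, counter or human build. Columns were matched by group initial and number, and in the TGF-β1 group by the number alone. No group mean or main test depends on it.

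Relative depths are median count/FPKM ratios of 565 genes that reached 50 counts in all libraries, and 41 genes with 1 annotated transcript set the scale. Rows were tested with edgeR 4.0.16 (quasi-likelihood, group only, no filter). Standard errors are |log2 fold change|/√F. Limma 3.58.1, DESeq2 1.42.0 (R 4.3.3), a mean of at least 10 counts, depths from genes with at least 500 counts, other scalings, a replicate block and leaving out each library were alternatives. Ratios used counts + 0.5 (scipy 1.17.1, Python 3.11.15). No library repeated another (chi-square per degree of freedom at least 19.8). The tests were checked on simulated counts in which a minority of genes changed, equally in both directions, at known depths. That check does not cover the selection of the rows, the depth estimate or the other scalings. Coordinates and coding sequences come from GENCODE 29, matched by symbol. The members, lists and tests were chosen with earlier results of these data known. Named genes are the members, up to 4 genes per list with the largest fold changes, and the 3 nearest profiles of COL1A2, COL3A1 and LOX. For these profiles 0.5 was added to counts at the mean depth, a scale chosen after a first run in CPM, in which that 0.5 outweighed low counts, had been seen.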

Additional observations from a re-analysis of the deposited data

How the results depend on the processing

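Of 98 alternative values for the 7 members, 88 kept their direction and side of the threshold, 10 kept the direction but no longer passed, and 0 reversed. The filter at a mean of 10 counts removed none of the 937 rows, so its values repeat the main fit. Depths from genes with at least 500 counts almost equalled the main depths. Values kept under these settings were fixed in advance or nearly so, and do not show robustness. The log2 fold change of COL4A6 was 0.19 by limma on log2(FPKM + 1), 0.63 on log2(FPKM + 0.1), and 0.53 to 1.56 with each library left out. That of COL25A1 was -0.50 with TMM factors, -0.40 with DESeq2's own size factors, and -1.29 to -0.77 with each library left out. That of LOX was -0.55 with DESeq2's own size factors. On the log2(FPKM + 1) scale, which understates changes of low genes, COL1A2 was at -0.54, COL11A2 at 0.74 and COL25A1 at -0.32. Members passing as higher numbered 1 under both limma fits and under the replicate block, and 1 to 2 with each library left out. Higher genes of the whole table numbered 389 and 394 under the limma fits and 393 under the block. With each library left out they numbered 388 to 397, against 398 of 937 in the main fit. Members passing as lower numbered 3 with DESeq2's own size factors. Lower genes of the whole table numbered 331 with TMM and 278 with DESeq2's own size factors, against 533. These scalings take most genes as unchanged, while the table holds called genes only.

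Replicates with the same number did not deviate together (correlations 0.0677, 0.0019 and -0.0881). Libraries of unlike number reached -0.12 and 0.122. These values do not tell whether libraries of the same number shared a culture or a batch. With the replicate block the log2 fold change of COL4A6 was 1.06 (adjusted p = 0.0774, edgeR), and no other member lost its call. For the 31 other genes of the lists and nearest profiles 419 of 434 alternative values kept direction and call, and 15 kept the direction only. Those that kept both include the settings that repeat the main fit or nearly so. COL1A2 and COL4A6 rest on 12 to 129 and 19 to 105 counts per library, which limits their precision.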
